A study of Homo sapiens with 6 samples.

Results

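The genes described here are 9 p53 targets and senescence-linked cell-cycle inhibitors, CDKN1A, CDKN2A, CDKN2B, MDM2, GDF15, BBC3, SESN1, SESN2 and TP53I3, taken by gene symbol from 2 tables of 25368 gene symbols each. All 9 were found in both tables. The RNA-seq libraries came from MRC5, a line of human embryonic lung fibroblasts that the study immortalized with hTERT. In the JUN overexpression table, MRC5 cells were infected with adenovirus for 2 h and cultured for 3 days, and the virus carried an empty vector (control), wild-type JUN (JUN WT) or a JUN mutant whose JNK-phosphorylated serines were changed to alanine (JUN AA), both JUN forms with a FLAG tag. In the JNKi table, untreated MRC5 cells were set beside induced cancer-associated fibroblasts (iCAFs), made by 7 days in medium conditioned by MDA-MB-231 breast cancer cells, and beside iCAFs given the JNK inhibitor JNK-IN-8 (JNKi) at 1 µM for 48 h (iCAFs+JNKi). Each of the 6 conditions had 1 library, so no difference has a replicate check and no test or p-value is given. All 3 libraries of the first table came from infected cells. The conditioned medium was harvested without serum while MRC5 cells were kept in growth medium with serum, so the effects of tumour cell products and of serum in iCAFs cannot be told apart. The label of the iCAFs library does not say whether these cells received the vehicle.

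p53 is a transcription factor that is held at a low level by MDM2, a ubiquitin ligase whose own gene p53 switches on, and that accumulates after DNA damage and other stress. It then raises CDKN1A, which encodes p21, an inhibitor of cyclin-dependent kinases, and genes for apoptosis, metabolism and repair. CDKN2A and CDKN2B are neighbours in the INK4 locus and encode p16 and p15, inhibitors of CDK4 and CDK6, and CDKN2A also encodes ARF, which binds MDM2. Cultured fibroblasts that stop dividing in senescence are known for high p21 and p16.

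Expression is given as FPKM, fragments per kilobase of exon scaled by the mapped fragments of the library, a length-scaled unit in which genes can be compared with each other. The tables were normalised separately, so conditions were compared only within a table. A difference is that of log2(FPKM + 1), which makes the change of a gene at a low level look smaller than it was. A gene is said to rise or fall where this difference was at least 1, which is 2-fold, and a gene was counted where its 3 libraries averaged 1 FPKM or more. All 9 genes passed this filter in both tables. The number of reads is unknown, so no counting error can be given for a value. Summed over genes, FPKM came to 494603 with the empty vector, 498514 with JUN WT and 613184 with JUN AA, and to between 359944 and 399532 in the JNKi table. All 8 fibroblast markers were at 9.62 FPKM or more in every library. The summed FPKM of 5 epithelial markers was at most 2.02, with CDH1, KRT5 and ESRP1 listed at 0 throughout, and that of 4 leukocyte markers at most 2.16. Of 4 endothelial markers, CDH5 was listed at 0 in all 6 libraries, while TEK measured 2.52 FPKM in MRC5 cells, 3.77 in iCAFs and 10.4 in JNKi-treated iCAFs. The part of TEK-expressing cells in the results was not tested. JUN itself stood at 25.5 FPKM with the empty vector, 4543 with JUN WT and 291 with JUN AA. The JUN WT and JUN AA libraries thus differed in the level of JUN RNA as well as in the mutation, and these cannot be told apart. In the JNKi table JUN stood at 57.1 FPKM in MRC5 cells, 55.3 in iCAFs and 21.1 in JNKi-treated iCAFs.

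Sequence around the 9 start sites was read from GRCh37, the assembly also called hg19, over 3000 bp on each side of the start of the canonical transcript. The p53 response element was searched as a pair of adjoining decamers without a spacer, each with its C and G core bases and A or T at both places between them, on both strands, with at most 2 departures from the consensus in the flanking bases. Such an element was found around 2 of the 9 genes and around 2.86% of 19869 protein-coding genes. The search misses elements with a spacer, with other core bases or with more departures, so a gene without a match may still have an element. Both are shown because these genes are the most abundant inhibitor and the gene with the widest span in the JUN overexpression table, with the core of each decamer in capitals:
CDKN1A, chr6:36644226-36644245, plus strand: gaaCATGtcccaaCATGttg
GDF15, chr19:18496118-18496137, plus strand: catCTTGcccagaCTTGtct
The CDKN1A element lies 2246 bp upstream of the canonical start, at the edge of an exon of a longer transcript. The GDF15 element lies 831 bp upstream of the canonical start, inside the annotated gene and outside its exons.

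JUN binds DNA as part of AP-1, whose consensus heptamer is TGACTCA or its reverse complement TGAGTCA. At least 1 copy lay in the window of 6 of the 9 genes and of 56.6% of all protein-coding genes. MDM2 had 4 copies and CDKN1A 3, while GDF15, CDKN2B and SESN1 had none. The copies at the genes whose values differed most between JUN WT and the control are shown on the gene's strand, with the heptamer in capitals:
BBC3, chr19:47736025-47736043, minus strand, 1575 bp upstream: ggaaggTGAGTCActctgg
SESN2, chr1:28588690-28588708, plus strand, 2667 bp downstream, in an intron: gatcttTGAGTCAggtgcc
A match is a stretch of letters, and binding at these places was not measured here.

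**Figure D1:**
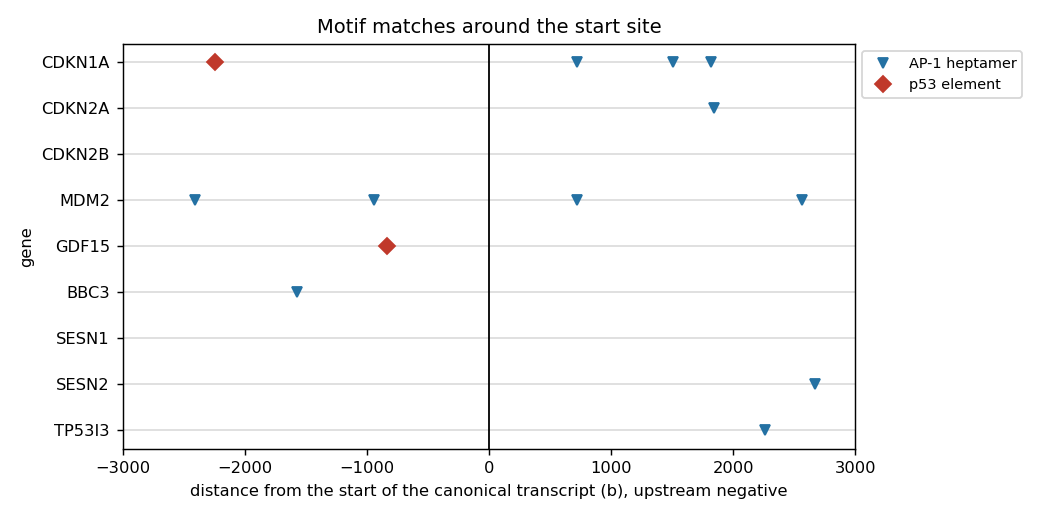
Positions of AP-1 heptamers (triangles) and p53 elements (diamonds) around the start of the canonical transcript of each gene, with distance in bp on the x axis and upstream as negative. MDM2 carries 4 AP-1 heptamers and CDKN1A 3, and the only p53 elements found under the search rule are those of CDKN1A and GDF15.

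CDKN1A was by far the most abundant of the 9 genes in every library. In GRCh37 it spans 36644237 to 36655114 of chromosome 6. Its level stood at 1634 FPKM with the empty vector, 1226 with JUN WT and 1678 with JUN AA, and 40 genes stood above it in the control. In the JNKi series of libraries it measured 478 FPKM in MRC5 cells, 576 in iCAFs and 437 in JNKi-treated iCAFs. The lowest library was thus JUN WT in the first table and iCAFs+JNKi in the second, and no difference of CDKN1A reached 2-fold. The difference was -0.41 in JUN WT relative to control and 0.04 in JUN AA relative to control, and the latter became -0.27 when every library was rescaled to a common sum. It was 0.27 in iCAFs relative to MRC5, a value above those of 87.4% of the genes counted, and -0.40 in iCAFs+JNKi relative to iCAFs.

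The other 2 inhibitors are adjacent genes, and in JUN AA CDKN2B fell while CDKN2A had its highest value. CDKN2A lies on chromosome 9 from 21967751 to 21995300 and CDKN2B from 22002902 to 22009304, both on the minus strand with 7601 bp between them. CDKN2A stood at 137 FPKM with the empty vector, 141 with JUN WT and 249.6 with JUN AA. CDKN2B stood at 6.47 FPKM with the empty vector, 3.95 with JUN WT and 2.50 with JUN AA. CDKN2A was highest and CDKN2B lowest in JUN AA. The level of CDKN2A was 21.2 times that of CDKN2B in the control, 35.7 times in JUN WT and 99.7 times in JUN AA, a ratio within each library that does not depend on its scaling. The fall of CDKN2B in JUN AA was -1.09 on the log2 scale. The difference of CDKN2A in JUN AA, 0.86, was under 2-fold, and it was 0.55 with rescaled FPKM and 1.06 with the GC trend removed, an alternative added with the data in view. Short transcripts had higher values in JUN AA, with a Spearman correlation of -0.19 between length and the difference across genes. Genes of similar length to CDKN2A, whose canonical transcript has 978 bases, had a median difference of 0.19, and the difference of CDKN2A was 0.67 with this subtracted. FPKM per gene do not separate p16 from ARF, whose transcript holds 81.6% of the bases of the p16 transcript.

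Among the libraries of the JNKi table, CDKN2A measured 36.0 FPKM in MRC5 cells, 28.4 in iCAFs and 16.2 in JNKi-treated iCAFs. For CDKN2B these values were 3.38, 3.58 and 2.38 FPKM. Both were lowest with JNKi. CDKN2A fell by 1.11 on the log2 scale in iCAFs+JNKi relative to MRC5, and by less than 2-fold in each of the steps, with -0.33 in iCAFs relative to MRC5 and -0.77 in iCAFs+JNKi relative to iCAFs. The fall from MRC5 was close to the threshold, at -0.99 with rescaled FPKM, -0.94 with differences centred on the median gene, -0.89 with the GC trend removed and -0.83 with the length trend removed, the trend settings added with the data in view. The ratio of CDKN2A to CDKN2B was 10.6 for MRC5 cells, 7.92 for iCAFs and 6.80 after JNKi.

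**Figure D2:**
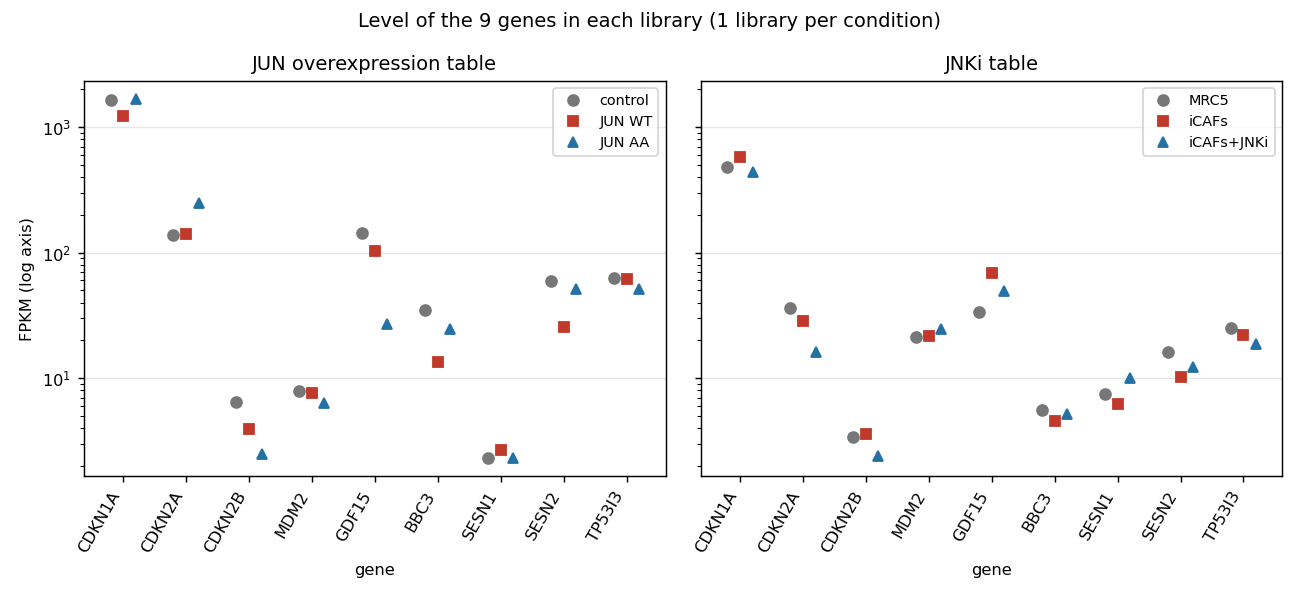
FPKM of the 9 genes on a log axis in the 3 libraries of the JUN overexpression table (left) and of the JNKi table (right), with 1 point per library and no error bars because each condition has 1 library. CDKN1A lies at the top of both panels, and GDF15 has its lowest point in JUN AA, at 27.1 FPKM against 143 FPKM in the control.

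MDM2, the p53 feedback gene, had small differences in both tables. It lies on chromosome 12 from 69201957 to 69239324. MDM2 stood at 7.83 FPKM with the empty vector, 7.61 with JUN WT and 6.31 with JUN AA. It measured 21.1 FPKM in MRC5 cells, 21.5 in iCAFs and 24.5 in JNKi-treated iCAFs. The span between its highest and lowest library was 0.27 on the log2 scale in the first table and 0.20 in the second, and 13.4% and 20.4% of the genes counted had a smaller span. Exons of other annotated genes cover part of its transcript, with 10.5% shared with an antisense lncRNA, and the strand setting of the FPKM is not stated.

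GDF15 had the widest span of the 9 genes in the JUN overexpression table, where 99.0% of the genes counted had a smaller one. It encodes a secreted member of the TGF-β superfamily that rises with many kinds of cell stress, and lies on chromosome 19 from 18485541 to 18499986. GDF15 stood at 143 FPKM with the empty vector, 103 with JUN WT and 27.1 with JUN AA. The low library was JUN AA, while JUN WT lay nearer to the control. GDF15 fell by 2.36 on the log2 scale in JUN AA relative to control, a lower value than in all but 0.272% of the genes counted. The difference in JUN WT relative to control was -0.47, and GDF15 was 1.88 higher in JUN WT than in JUN AA. GDF15 also varied in the JNKi table, where it measured 33.8 FPKM in MRC5 cells, 68.7 in iCAFs and 49.5 in JNKi-treated iCAFs. Both iCAF libraries were above MRC5. The rise in iCAFs, of 1.00, stood just inside the 2-fold threshold, and the differences were -0.46 in iCAFs+JNKi relative to iCAFs and 0.54 in iCAFs+JNKi relative to MRC5. GDF15 was thus the only one of the 9 genes past 2-fold in iCAFs relative to MRC5, where 1.94% of 11780 genes rose, 1.71% fell and 3.65% moved in either direction.

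BBC3 encodes PUMA, a protein that promotes apoptosis through the mitochondria, and lies on chromosome 19 from 47724079 to 47736023. It stood at 35.1 FPKM with the empty vector, 13.6 with JUN WT and 24.8 with JUN AA. JUN WT was the lowest library, at a fall of 1.31 on the log2 scale, and JUN AA lay between, at -0.49. BBC3 differed by -0.82 in JUN WT relative to JUN AA. BBC3 was between 4.53 and 5.54 FPKM in the libraries of the JNKi table, with no difference past 0.24 in size. The transcript of BBC3 has a GC content of 69.7%, and GC-rich genes had lower values in JUN WT, with a Spearman correlation of -0.39 between GC content and the difference across 9393 genes, which are not independent. Genes of similar GC content had a median difference of -0.34, and the difference of BBC3 was -0.97 with this removed.

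SESN1 and SESN2 encode sestrins, which restrain mTORC1 when amino acids are short or cells are stressed, and only SESN2 moved past 2-fold. SESN2 lies on chromosome 1 from 28586029 to 28609002, and SESN1 on chromosome 6 from 109305512 to 109416049. SESN2 stood at 59.6 FPKM with the empty vector, 25.7 with JUN WT and 51.1 with JUN AA. For SESN1 these values were 2.30, 2.68 and 2.32 FPKM. SESN2 was low in JUN WT alone, with a fall of 1.18 on the log2 scale, and the difference became -0.95 with the GC trend removed, under 2-fold as for BBC3, while CDKN2B went from -0.59 to -1.04 under that setting. In JUN WT relative to JUN AA SESN2 differed by -0.96, just outside the threshold. SESN2 was 25.9 times as high as SESN1 in the control and 9.59 times in JUN WT. This ratio was 2.16 for MRC5 cells, 1.65 for iCAFs and 1.22 after JNKi. The GC content of the transcripts was 59.6% for SESN2 and 40.6% for SESN1. Genes of similar GC content had median differences of -0.23 and 0.38 in JUN WT relative to control, so part of the change in ratio goes with GC content. SESN1 went from 0.16 to -0.22 there with the GC trend removed. SESN2 measured 16.2 FPKM in MRC5 cells, 10.2 in iCAFs and 12.2 in JNKi-treated iCAFs, and SESN1 measured 7.51, 6.20 and 9.95 FPKM. Both were lowest in iCAFs and neither moved by 2-fold, with SESN2 at -0.61 in iCAFs relative to MRC5, and SESN1 at 0.61 when JNKi-treated iCAFs were set beside iCAFs.

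TP53I3, which encodes a quinone oxidoreductase, stood at 62.3 FPKM with the empty vector, 62.0 with JUN WT and 50.9 with JUN AA. It measured 25.1 FPKM in MRC5 cells, 22.1 in iCAFs and 18.8 in JNKi-treated iCAFs. The gene lies on chromosome 2 from 24300303 to 24308731, and no difference of it exceeded 0.40 in size. Exons of FAM228B overlap 4.84% of its transcript.

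In the control the order of the levels was CDKN1A, GDF15, CDKN2A, TP53I3, SESN2, BBC3, MDM2, CDKN2B and SESN1, from 1634 down to 2.30 FPKM. In MRC5 cells it was CDKN1A, CDKN2A, GDF15, TP53I3, MDM2, SESN2, SESN1, BBC3 and CDKN2B, from 478 down to 3.38 FPKM. With 1 library per condition, neighbours such as GDF15 and CDKN2A in the control, at 143 and 137 FPKM, cannot be ranked with an error.

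The counts over the 9 genes were small. In JUN WT relative to control, BBC3 and SESN2 fell and 0 rose, beside 3.39% of 10311 genes that fell, 6.92% that rose and 10.3% in either direction. In JUN AA relative to control, GDF15 and CDKN2B fell and 0 rose, beside 3.77% of genes that fell, 5.29% that rose and 9.06% in either direction. These comparisons share the control library, and the 2 JUN libraries also differed directly, with GDF15 higher in JUN WT and 0 of the 9 at least 2-fold lower, beside 6.65% of genes that were higher, 5.61% that were lower and 12.3% in either direction. With differences centred on the median gene, 3 of the 9, CDKN2A, BBC3 and SESN2, passed 2-fold downward when JUN WT was set beside JUN AA, BBC3 at -1.01, SESN2 at -1.15 and CDKN2A just inside the threshold. Under that centring 1233 of the 10311 genes passed 2-fold and 33.3% of these were higher, beside 54.3% without it. In iCAFs+JNKi relative to iCAFs, 0 of the 9 genes passed 2-fold in either direction, beside 2.25% of genes that rose, 1.97% that fell and 4.22% in all. In iCAFs+JNKi relative to MRC5, CDKN2A fell, beside 3.53% of all genes that fell, 3.28% that rose and 6.81% in all.

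**Figure D3:**
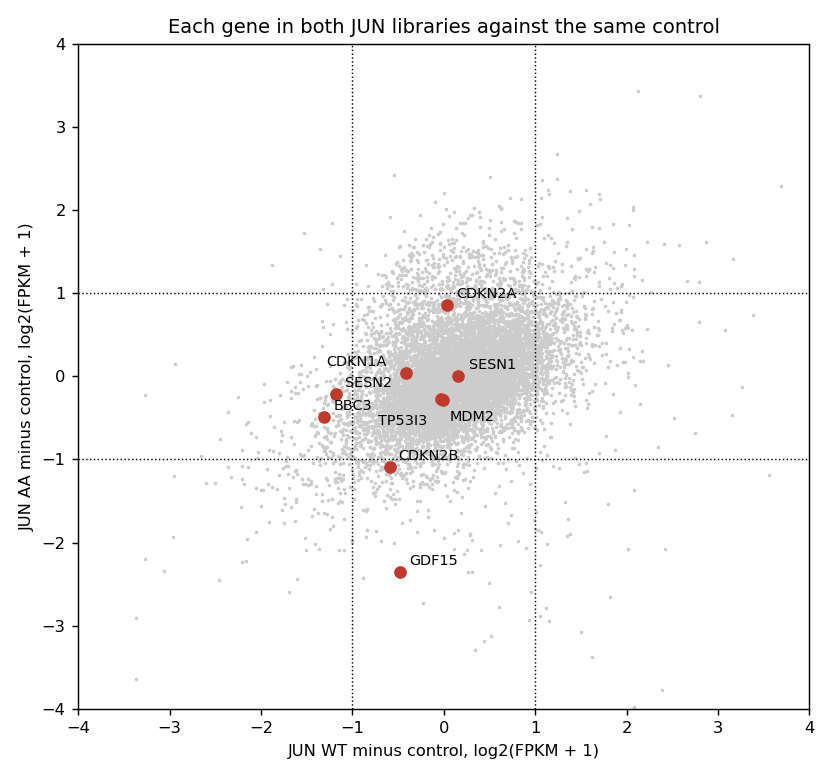
Difference in log2(FPKM + 1) of each gene in JUN WT relative to control (x axis) and in JUN AA against the same control (y axis), with 10302 genes in grey, the 9 genes in red and 2-fold as dotted lines. Another 9 genes, JUN among them, lie outside the axes. BBC3 and SESN2 lie left of the 2-fold line for JUN WT, and GDF15 and CDKN2B below that for JUN AA.

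The median difference of the 9 genes was -0.41 in JUN WT relative to control, where that of all genes was 0.15. It was -0.27 beside -0.02 in JUN AA relative to control. In iCAFs relative to MRC5 it was -0.18 beside -0.06, and between iCAFs with and without JNKi it was -0.22 beside -0.10. In iCAFs+JNKi relative to MRC5 the median of the 9 genes, at -0.13, was above that of all genes, at -0.16. Between JUN WT and JUN AA it was 0.15 beside 0.18. In each of the JUN libraries more of the 9 genes lay below the control than above it, 7 for JUN WT and 6 for JUN AA, while 4028 of the 10311 genes lay below in JUN WT and 5298 in JUN AA.

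**Figure D4:**
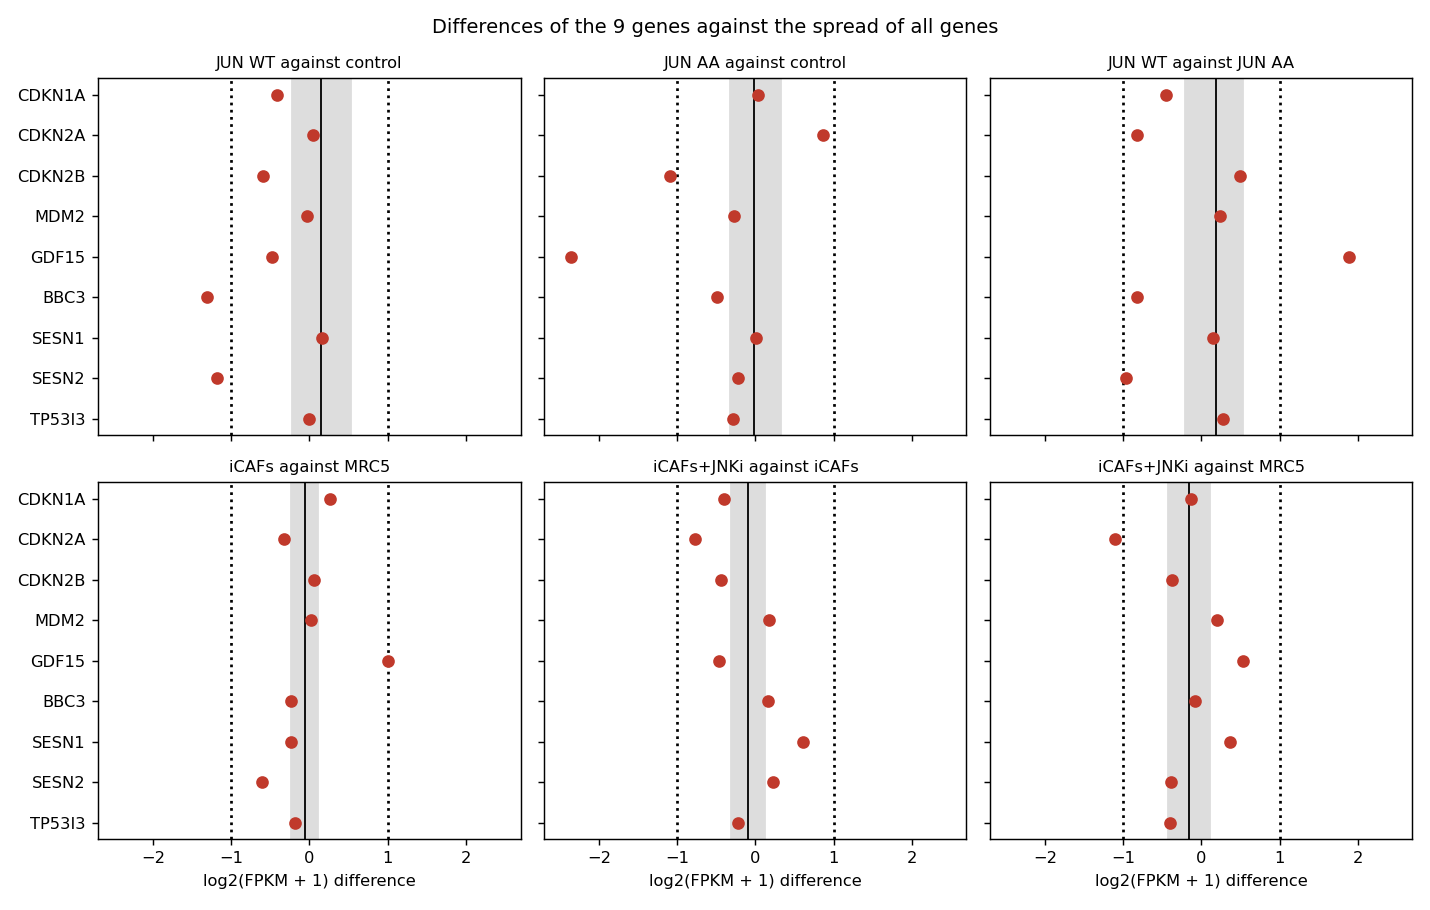
Difference in log2(FPKM + 1) of the 9 genes in each of the 6 comparisons (points), with the range between the quartiles of all genes counted as a grey band, their median as a line and 2-fold as dotted lines. The points of BBC3 and SESN2 in JUN WT and of GDF15 and CDKN2B in JUN AA lie past the lower dotted line, while MDM2 stays between -0.27 and 0.24 in every panel.

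Among 15 genes for regulators of p53, 10 were counted in the JUN overexpression table and 0 fell in either JUN library when set beside the control. Over all genes, 3.39% fell and 6.92% rose in JUN WT, and 3.77% fell and 5.29% rose in JUN AA. RPL11 rose in JUN WT, from 320 to 941 FPKM, and in JUN AA RPL11 and RPL5 rose, to 923 FPKM and from 250.5 to 678 FPKM. RPL11 and RPL5 encode ribosomal proteins known to bind MDM2. Of the 13 counted in the JNKi libraries, 0 moved by 2-fold in any comparison. Over all genes, 3.65% moved in iCAFs relative to MRC5, 4.22% in iCAFs+JNKi relative to iCAFs and 6.81% in iCAFs+JNKi relative to MRC5. CHEK2, which encodes a checkpoint kinase, had the largest difference of the 13 in iCAFs+JNKi relative to iCAFs, at -0.71.

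A list of 37 other p53 targets moved in both directions. In JUN WT relative to control, 2 of 36 rose and 4 fell, beside 6.92% and 3.39% of all genes. The median of the list was -0.08, beside 0.15 for all genes, and -0.34 with the GC trend removed. FDXR fell most, from 90.7 to 28.4 FPKM, and PIDD1 next, from 31.8 to 9.93 FPKM. FDXR encodes ferredoxin reductase and PIDD1 a scaffold of caspase activation. The other falls were those of CD82 and BTG2, and the rises were those of GADD45A, a stress gene of growth arrest, from 42.3 to 109 FPKM, and E2F7, a repressor of the cell cycle, from 2.15 to 5.38 FPKM. In JUN AA relative to control, again 2 of 36 rose and 4 fell, beside 5.29% and 3.77% of all genes. The median was -0.24, beside -0.02 for all genes, and -0.28 with the GC trend removed. CD82, which encodes a tetraspanin, fell from 97.2 to 22.2 FPKM and the death receptor gene TNFRSF10B from 43.9 to 17.0 FPKM. RPS27L rose from 106 to 253 FPKM and BLOC1S2 from 13.5 to 29.3 FPKM. BTG2 fell in both, from 25.3 FPKM to 10.5 FPKM with JUN WT and to 9.92 FPKM with JUN AA.

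In iCAFs relative to MRC5, CD82 and SUSD6 were the only ones of the 37 to rise and 0 fell, beside 1.94% and 1.71% of all genes. CD82 measured 37.7 FPKM in MRC5 cells, 103 in iCAFs and 147 in JNKi-treated iCAFs. With JNKi, PMAIP1 and E2F7 were the only ones of the list to fall relative to iCAFs, and 0 rose, beside 1.97% and 2.25% of all genes. PMAIP1, which encodes the apoptosis protein NOXA, was at 66.8 FPKM in iCAFs and 23.4 FPKM with JNKi, and E2F7 at 7.89 and 3.22 FPKM. The median of the list was -0.09 in iCAFs relative to MRC5, beside -0.06 for all genes. It was 0.08 in iCAFs+JNKi relative to iCAFs, beside -0.10 for all genes.

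**Figure D5:**
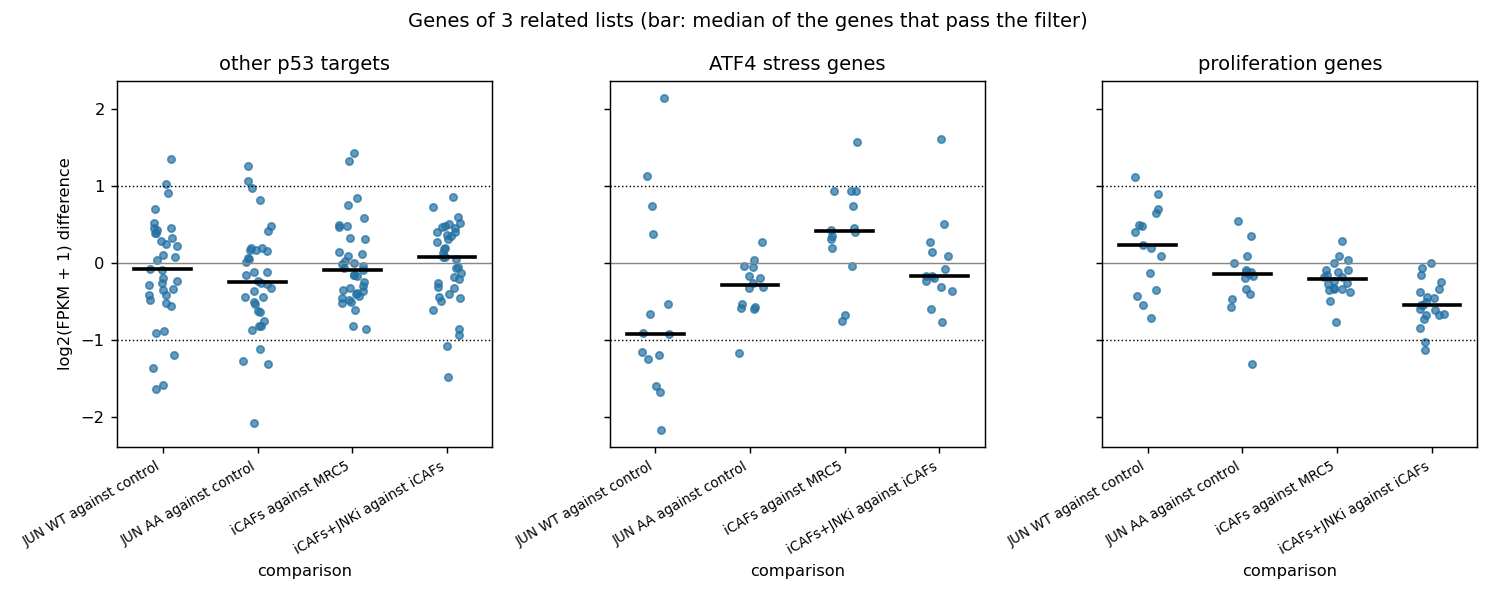
Difference in log2(FPKM + 1) of single genes (points) of the lists of other p53 targets, ATF4 stress genes and proliferation genes in 4 comparisons, with the median of the genes that pass the filter as a bar, 2-fold as dotted lines and a random sideways shift for legibility. The bar of the ATF4 list is lowest in JUN WT, at -0.92, and that of the proliferation list is lowest with JNKi, at -0.55.

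SESN2 and GDF15 are also known as targets of ATF4, the transcription factor of the amino acid and unfolded protein responses, so a list of 14 ATF4 stress genes was set beside them. In JUN WT relative to control 6 of the 14 fell and 2 rose, beside 3.39% and 6.92% of all genes. The median of the list was -0.92, beside 0.15 for all genes. PHGDH and PSAT1, enzymes of serine synthesis, fell from 153 to 33.2 FPKM and from 53.8 to 16.1 FPKM. TRIB3 fell from 70.9 to 22.8 FPKM, and ASNS, CEBPB and DDIT4 were the other falls. ATF3, from 7.87 to 38.2 FPKM, and the chaperone gene HSPA5, from 79.3 to 175 FPKM, rose. In JUN AA relative to control CHAC1 fell and 0 rose, beside 3.77% and 5.29% of all genes. The median was -0.28, beside -0.02 for all genes. SESN2 fell in JUN WT, in which 6 of this list fell, and GDF15 fell in JUN AA, in which 1 did. The part of ATF4 in these values was not tested. In iCAFs relative to MRC5 1 of 14 rose, VLDLR, from 0.807 to 4.36 FPKM, and 0 fell, with 11 of the 14 above 0 and a median of 0.42 beside -0.06 for all genes. GDF15 rose in that comparison and SESN2 was at -0.61. With JNKi CHAC1 rose from 54.3 to 168 FPKM and 0 fell, with a median of -0.17 beside -0.10 for all genes.

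Among 5 other genes for inhibitors of the cell cycle, 3 passed 2-fold in JUN WT relative to control and 1 in JUN AA. Over all genes these shares were 10.3% and 9.06%. CDKN2C and CDKN2D, which encode p18 and p19 of the INK4 family, rose from 1.26 to 6.33 FPKM and from 2.34 to 8.44 FPKM, and CDKN1C, which encodes p57, fell from 6.24 to 0.980 FPKM. In JUN AA CDKN3, a phosphatase gene of dividing cells, was the only one past 2-fold, from 0.672 to 2.96 FPKM. It passed the filter only through its JUN AA value, so no weight is put on this rise. CDKN3 fell in iCAFs+JNKi relative to MRC5, from 4.56 to 1.57 FPKM, and the other genes of this list stayed within 2-fold in the JNKi table. In the comparisons of that table, 3.65% to 6.81% of all genes passed 2-fold.

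The inhibitors were read beside 20 proliferation genes, such as those for cyclins and replication factors. With JUN overexpression, 15 of them passed the filter, MKI67 was at 0.082 FPKM or less, and LMNB1, which encodes the lamin B1 known to decline in senescence, at 0.462 FPKM or less. CCNE1 rose in JUN WT, from 1.21 to 3.76 FPKM, and CDC20 fell in JUN AA, from 5.21 to 1.49 FPKM. Over all genes, 6.92% rose in JUN WT and 3.77% fell in JUN AA. The median difference of the 15 from the control was 0.23 for JUN WT, beside 0.15 for all genes, and -0.15 for JUN AA, beside -0.02. With the GC trend removed, the median was 0.02 for each of these JUN libraries. In the JNKi libraries all 20 passed the filter, with MKI67 at 4.54 FPKM in MRC5 cells, 3.25 in iCAFs and 1.67 in JNKi-treated iCAFs. All 20 were lower with JNKi than in iCAFs, as were 7372 of all 11780 genes. The median of the 20 was -0.55, beside -0.10 for all genes, and CCNB1 and CDC20 fell, beside 1.97% of all genes. CCNB1 went from 13.8 to 5.75 FPKM and CDC20 from 9.02 to 3.92 FPKM. CDKN1A, CDKN2A and CDKN2B were also lower with JNKi than in iCAFs, at -0.40, -0.77 and -0.44. In bulk cultures, fewer dividing cells and less RNA of these genes per cell cannot be told apart. Of 8 genes for cyclins D, their kinases and the RB family, 6 passed the filter with JUN overexpression. CCND1 rose in JUN WT, from 85.5 to 177 FPKM, and 0 fell relative to control, beside 6.92% and 3.39% of all genes. In JUN AA 0 moved by 2-fold relative to control, beside 9.06% of all genes. CCND2 fell from 7.14 FPKM in MRC5 to 2.84 FPKM in iCAFs+JNKi, beside 3.53% of all genes that fell.

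Genes with the pattern most like that of 3 of the members were sought over 4 differences, namely JUN WT and JUN AA, each set beside the control, iCAFs beside MRC5, and iCAFs+JNKi beside iCAFs, among 5752 other genes that averaged 5 FPKM or more in both tables. The Euclidean distance, on the log2 scale, was the measure of likeness. Nearest to CDKN1A were C19orf47, CCDC124 and ETV4, at distances of 0.15, 0.17 and 0.18, beside a median distance of 1.05. KDELC1, FZD7 and KHNYN were nearest to MDM2, at 0.064, 0.084 and 0.097. For GDF15 the nearest were HLA-B at 0.75, AMOTL2 at 1.10 and LOXL2 at 1.11, beside a median of 2.78. The nearest genes to GDF15 were thus farther from it than those to CDKN1A and MDM2 were from theirs. The median distance, 0.90 for MDM2, was also largest for GDF15. A gene with large differences lies far from most others by this measure, so no weight is put on this contrast.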

How the data were processed

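The deposited values are FPKM per gene in 2 tables, 1 library per column, and each column was matched to its sample by name. Per the labels and the methods of the study, the authors mapped reads to hg19 with HISAT2 2.1.0 at default settings and computed FPKM with StringTie 2.1.1. The annotation, the strand setting and the read numbers are not given in the sources used here. FPKM are not counts, so no count model was used.

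Differences of log2(FPKM + 1) were computed within each table for 6 comparisons, with a pseudocount of 1, a filter that kept genes averaging 1 FPKM or more in the table and a threshold of 2-fold. Of rows with a common symbol, the one with the highest average entered. With 1 library per condition no test was made. The members and the gene lists were chosen with earlier results of these data known. All members are named, with JUN, and in each list up to 2 of the largest rises and falls past 2-fold in a comparison, or else the largest difference. Genes named beyond this rule, BTG2, TRIB3, ASNS, CEBPB, DDIT4, MKI67 and LMNB1 among them, were chosen after their values were seen. A gene that the rule also covers is not reported here. GRCh37 with the GENCODE v44lift37 annotation gave gene positions, exon overlaps, transcript length and GC. Median differences in 20 bins of GC content or length of the canonical transcript were subtracted in alternatives added after the data were seen. Other alternatives were FPKM rescaled to sum to 1000000, a pseudocount of 0.1, differences centred on the median gene, no filter, a filter of 5 FPKM and summed rows of the same symbol. The code was run on simulated data with planted changes well past 2-fold and little noise. That run checks the code only and gives no error for calls from 1 library per condition. Python 3.11.15, numpy 2.4.6, pandas 2.3.3, pysam 0.24.0 and matplotlib 3.10.9 were used.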

Additional observations from a re-analysis of the deposited data

How the results depend on the processing

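No paired analysis was possible because each condition has 1 library. A log2 value was taken to have moved by more than 0.25 and a count by more than 1.5 times, limits chosen here in the absence of replicates. Of 423 recomputed differences of single members, 394 stayed within this limit, and none of those past 2-fold changed sign. Rescaling shifted the median of all genes by -0.27 in JUN AA relative to control, 0.28 in JUN WT relative to JUN AA, 0.11 in iCAFs+JNKi relative to iCAFs and 0.13 in iCAFs+JNKi relative to MRC5, and by less than 0.1 elsewhere. For JUN WT relative to control, the members at least 2-fold lower were 1 with the GC trend removed. For JUN AA relative to control, they were 1 with a filter of 5 FPKM, which 7 members passed, 1 member was higher with the GC trend removed, and the members' median was -0.57 with rescaled FPKM. For JUN WT relative to JUN AA, 3 members were lower with centred differences and 2 with the length trend removed, and the median was 0.42 with rescaled FPKM, -0.45 with the filter of 5 FPKM and -0.10 with the length trend removed. For iCAFs+JNKi relative to MRC5, 0 members were lower with rescaled FPKM, centred differences or either trend removed. The cause of these shifts was not tested, apart from the filter, which left fewer members. Over all genes, the 1064 genes past 2-fold in JUN WT relative to control became 1756 with a pseudocount of 0.1 and 682 with the GC trend removed, and the 934 in JUN AA became 1431 with that pseudocount. Between JUN WT and JUN AA the 1264 became 2134 with rescaled FPKM. A pseudocount of 0.1 raised the 430 of iCAFs relative to MRC5 to 674, the 497 of iCAFs+JNKi relative to iCAFs to 769 and the 802 of iCAFs+JNKi relative to MRC5 to 1214, and the filter of 5 FPKM gave 316 and 529 in the last 2. The share of higher genes among those past 2-fold was 67.1% in JUN WT relative to control and 45.5% after centring, 58.4% in JUN AA and 26.1% with rescaled FPKM, and 54.3% between JUN WT and JUN AA, with 82.9% rescaled and 33.3% centred. It was 53.3% in iCAFs+JNKi relative to iCAFs and 64.0% centred, and 48.1% relative to MRC5, with 59.3% rescaled and 65.9% centred. Removal of the length trend gave 45.5%, 39.1%, 67.1% and 67.4% in JUN WT relative to control, JUN WT relative to JUN AA, iCAFs+JNKi relative to iCAFs and relative to MRC5, and removal of the GC trend 50.6%, 38.6%, 66.2% and 68.2%. The unknown number of reads limits low genes such as SESN1 and CDKN2B.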

Other observations

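Of 15 secreted genes known from senescent fibroblasts, 14 passed the filter in the JNKi table, and 12 of these rose in iCAFs relative to MRC5. Some passed only through their iCAF values and so had to differ, and no weight is put on this count. CXCL8 went from 0.153 to 548 FPKM, and IL1B, listed at 0 in MRC5, was at 194 FPKM. With JNKi, 6 of the 14 fell relative to iCAFs and 0 rose, beside 1.97% and 2.25% of all genes. IL6 went from 129 to 16.4 FPKM. IL1A, from 12.5 to 0.761 FPKM, passed the filter only through its iCAF value, so no weight is put on its fall. MMP10, which did not pass the filter, went from 0 to 1.11 FPKM. In the JUN overexpression table, 4 of 11 rose and 3 fell in JUN WT relative to control, while 1 rose and 3 fell in JUN AA. CXCL8, among the rises in JUN WT, was listed at 0 with the empty vector and at 4.46 FPKM with JUN WT. It passed the filter only through its JUN WT value, so no weight is put on its rise or on the count that holds it. Over all genes, 6.92% rose and 3.39% fell in JUN WT, and 5.29% rose and 3.77% fell in JUN AA. MMP1, which encodes a collagenase, stood at 31.1 FPKM with the empty vector, 414 with JUN WT and 155 with JUN AA. IGFBP7 stood at 720 FPKM with the empty vector, 269 with JUN WT and 238 with JUN AA. CDKN2A, the p16 gene, was under 2-fold in each of these comparisons.

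Among 11 genes known to act on the INK4 locus, ID1 and SMAD7 rose in iCAFs relative to MRC5 and 0 fell, beside 1.94% and 1.71% of all genes. ID1, a repressor that opposes ETS factors at the p16 promoter, measured 9.61 FPKM in MRC5 cells, 94.0 in iCAFs and 120 in JNKi-treated iCAFs. ETS2, an activator at that promoter named after its values were seen, went from 34.1 FPKM in MRC5 to 79.1 FPKM in iCAFs+JNKi. In that comparison ID1, SMAD7 and ETS2 rose and 0 fell, beside 3.28% and 3.53% of all genes. The part of these genes in the values of CDKN2A was not tested. Of 10 counted with JUN overexpression, 0 moved by 2-fold in any comparison. Over all genes the shares were 10.3% in JUN WT and 9.06% in JUN AA, each relative to control, and 12.3% between them. ID1 had the largest difference in JUN WT relative to control, at -0.81.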
